A study of Mus musculus with 4 samples.

Results

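The R-spondin system is described here through 9 genes of the 54752 gene identifiers in the count table of the series: the receptors Lgr4, Lgr5 and Lgr6, the ligands Rspo1, Rspo2, Rspo3 and Rspo4, and the ubiquitin ligases Znrf3 and Rnf43. They were taken by gene symbol. The set was drawn around Lgr6 because its decrease in the comparison of the groups was among the largest, so the values of Lgr6 are given as a description with no test. The other members were added as its family and partners.

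RNA of mouse hearts at postnatal day 14 had been sequenced in 2 wild-type libraries and 2 libraries with the genotype label Carm1 mutant. Carm1 encodes an arginine methyltransferase that acts on histone H3 and on transcriptional coactivators. The sources used here do not give the allele, the strain, any Cre driver, the sex or how many animals a library holds. P-values therefore measure only the spread between these libraries, which may be technical.

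R-spondins are secreted proteins that raise the sensitivity of cells to Wnt. Znrf3 and Rnf43 are membrane ubiquitin ligases that remove Frizzled receptors from the cell surface, and an R-spondin bound to Lgr4, Lgr5 or Lgr6 takes these ligases away, which leaves more Frizzled in place. Znrf3, Rnf43 and Lgr5 are themselves switched on by Wnt in many tissues. Lgr5 and Lgr6 are known as markers of epithelial stem cells, and Lgr6 in particular of the hair follicle and skin.

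Library totals ran from 11677604 to 22217442 counts. Carm1 had 45.9 and 52.4 CPM (counts scaled to library size with TMM factors) in the wild-type libraries and 35.8 and 31.8 CPM in the others and was not called (edgeR quasi-likelihood FDR 0.114). A count over the whole gene cannot show a partial deletion, so the second group is called mutant-labelled. Counts from the Y chromosome (Ddx3y, Eif2s3y, Kdm5d and Uty) summed to 101 and 114 CPM in wild type and to 0.279 and 0 CPM in the mutant-labelled libraries, and Xist had 0.686 and 0.766 against 324 and 289 CPM. Sex and genotype label therefore cannot be told apart in any value below. All 9 members lie on autosomes. All 8 ventricular muscle markers listed had counts in every library, as the heart label requires. In wild type replicate 1 the level of a gene relative to the other libraries fell with transcript length (Spearman's rho −0.34 across genes, which are not independent replicates, against 0.27, 0.20 and −0.0034 in wild type replicate 2 and mutant-labelled replicates 1 and 2), so values without it are given where a call depends on it.

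The bases before the annotated starts are shown for the receptor genes that carried nearly all receptor RNA, Lgr6 and Lgr4, and for Rspo1, the most abundant ligand gene. RefSeq sequences of GRCm38.p6 were at hand for 5 members, Lgr4, Lgr6, Rspo1, Rspo4 and Rnf43. The 250 bases before the start lie at chr1:135105277-135105526 on the minus strand for Lgr6, at chr2:109917397-109917646 on the plus strand for Lgr4 and at chr4:124986180-124986429 on the plus strand for Rspo1. Each is written 5′ to 3′, with matches to CCAAT on either strand in capitals.
Lgr6: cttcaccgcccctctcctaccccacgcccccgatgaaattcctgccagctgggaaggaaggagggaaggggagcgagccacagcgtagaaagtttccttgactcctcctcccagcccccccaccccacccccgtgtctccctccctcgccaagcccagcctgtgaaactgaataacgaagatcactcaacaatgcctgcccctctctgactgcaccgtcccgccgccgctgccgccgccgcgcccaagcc
Lgr4: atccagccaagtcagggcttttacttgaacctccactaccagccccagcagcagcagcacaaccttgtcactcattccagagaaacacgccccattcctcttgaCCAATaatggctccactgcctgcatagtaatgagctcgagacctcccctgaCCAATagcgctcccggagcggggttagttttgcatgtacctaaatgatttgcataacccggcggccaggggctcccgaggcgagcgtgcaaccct
Rspo1: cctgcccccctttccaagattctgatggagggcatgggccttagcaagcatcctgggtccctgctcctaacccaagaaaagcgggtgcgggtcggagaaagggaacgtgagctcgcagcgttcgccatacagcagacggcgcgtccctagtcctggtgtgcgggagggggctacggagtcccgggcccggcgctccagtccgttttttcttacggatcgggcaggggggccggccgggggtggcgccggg
The Lgr4 window held CCAAT at 146 and 95 bases before the start, counted at the first base of the match, and the windows of Lgr6 and Rspo1 held none. Of the 32851 windows of that length in the RefSeq table, 33.8% held CCAAT. The TCF/LEF core, searched as CTTTGAT or CTTTGAA or CTTTGTT or CTTTGTA on both strands, matched none of the windows of the 5 genes, against 14.8% of all windows. The GC box GGGCGG, also searched on both strands, matched in the Lgr6 window at position −245 and in the Rspo4 window at −55 and −33. It matched in 32.7% of all windows. The Lgr6 window was 65.2% G or C with 16 CpG pairs, that of Lgr4 55.6% with 10 and that of Rspo1 66.8% with 22, while the medians of all windows were 52.4% and 6.

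Lgr6 was the most abundant member per length in the wild-type hearts and only the fourth in the mutant-labelled hearts. Lgr6 (ENSMUSG00000042793, GRCm38 chromosome 1, 134983301 to 135105276, minus strand) had 968 and 1190 wild-type counts against 112 and 46 mutant-labelled counts. This was 55.4 and 60.8 CPM against 4.47 and 3.39 CPM. Both mutant-labelled libraries lay far below both wild-type libraries, and the spread within each group was small beside the gap. The mean was 58.1 ± 3.8 CPM in wild type and 3.93 ± 0.76 CPM in the other group (SD, n = 2 each), so 6.76% of the wild-type level remained, a 14.8-fold difference. The fitted log2 fold change was −3.86. Of the 15283 genes tested 0.0785% had a fitted decrease at least as large, Lgr6 included; 11 others stood below it, the 4 Y-linked genes among them. Leaving out wild type replicates 1 and 2 and mutant-labelled replicates 1 and 2 in turn gave log2 fold changes of −3.93, −3.82, −4.10 and −3.71, so no single library set the size of the difference. With library totals in place of TMM the median of all genes moved from 0.02 to 0.41 on the log2 scale and Lgr6 stood at −3.48, which is −3.90 relative to that median against −3.89 with TMM. In RNA of mixed heart cells, fewer cells of a type and less RNA per cell cannot be told apart.

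**Figure D1:**
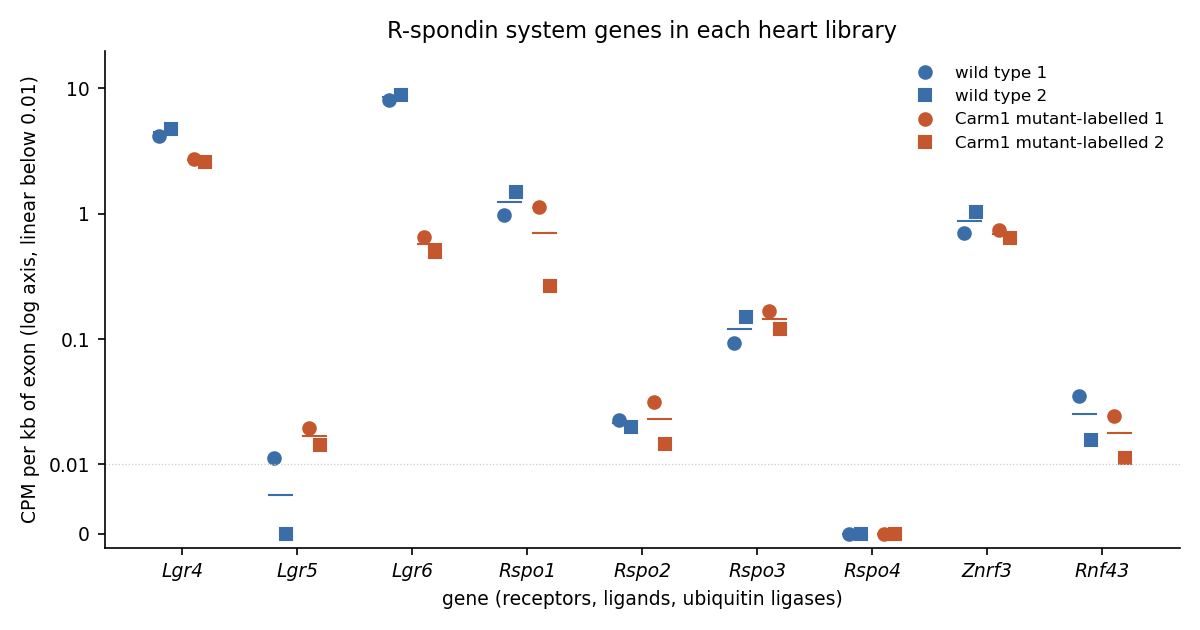
Levels of the 9 genes in each of the 4 libraries, in CPM per kb of exon on a log axis that is linear below 0.01; circles are replicate 1, squares replicate 2, and short lines the group means. Lgr6 drops from 8.48 to 0.57 CPM per kb between the group means, while Lgr4 goes from 4.47 to 2.68 and Rspo4 lies at 0 in every library.

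Lgr4 was lower in both mutant-labelled libraries, by a much smaller amount than Lgr6. Lgr4 (ENSMUSG00000050199, chromosome 2, 109917647 to 110014257, plus strand) is the broadly expressed receptor of the family. Its counts were 433 and 544 against 407 and 208, wild type first, which was 24.8 and 27.8 CPM against 16.2 and 15.3 CPM. The groups did not overlap, but this was common, since they did not overlap for 59.0% of all genes tested (28.7% lower and 30.3% higher in the mutant-labelled group). The log2 fold change was −0.73 (SE 0.19, 95% interval −1.17 to −0.30) and the edgeR quasi-likelihood FDR was 0.0545, just above the threshold of 0.05, so Lgr4 was not called. The call turned with the libraries and the test used. No alternative scaling factors gave a call: the edgeR FDR was 0.0524 with DESeq2 size factors and 0.0666 with upper-quartile factors. With library totals the log2 fold change was −0.35 (edgeR FDR 0.284), which is −0.76 relative to the median of all genes there. Lgr4 passed without wild type replicate 1 (edgeR FDR 0.00787) and without wild type replicate 2 (0.0101), and stood at 0.403 and 0.449 without mutant-labelled replicates 1 and 2. DESeq2 gave an adjusted p of 0.0419, and over all alternatives run the range was 0.00157 to 0.449.

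Lgr5 was close to the limit of detection. Lgr5 (ENSMUSG00000020140, chromosome 10, 115450311 to 115587780, minus strand) had 2 and 0 counts against 5 and 2, wild type first. Its ratio per effective library was 3.36 with an exact 95% interval of 0.639 to 33.1 that covers counting error only, so no difference was detectable at this depth. The filter on low counts left it out of the test.

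The make-up of the receptor RNA was thus reversed between Lgr6 and Lgr4. Per kb of exon, Lgr6 made up 65.7% and 65.3% of the counts of the 3 receptor genes in wild-type hearts, against 19.0% and 15.9% in mutant-labelled hearts. Lgr4 made up 34.2% and 34.7% against 80.4% and 83.7%. Lgr5 stayed between 0% and 0.566% in all 4 libraries. For each Lgr4 count there were 2.24 and 2.19 Lgr6 counts in the wild-type hearts against 0.275 and 0.221, a ratio that needs no scaling between libraries and differed at least 7.95-fold between any pair of libraries from the 2 groups. Lgr6 was chosen for its difference between these groups, so no test is given.

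**Figure D2:**
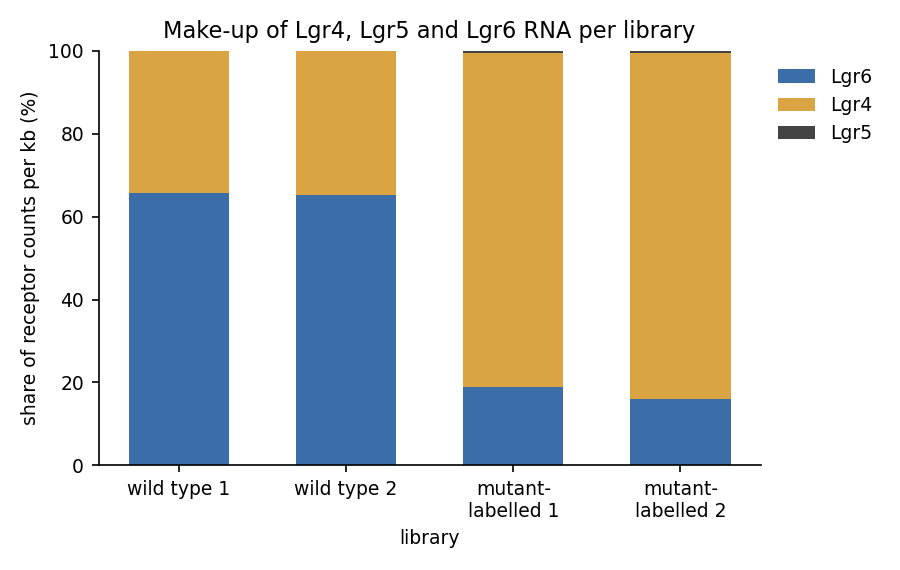
Share of Lgr6, Lgr4 and Lgr5 in the counts per kb of exon of the 3 receptor genes, in percent, one bar per library. Lgr6 fills 65.7% and 65.3% of the wild-type bars and 19.0% and 15.9% of the mutant-labelled bars, and Lgr5 is barely visible.

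Of the ligand genes Rspo1 alone was measured well enough to be tested. Rspo1 (ENSMUSG00000028871, chromosome 4, 124986430 to 125009099, plus strand), an R-spondin known for its part in ovary formation, had 33 and 57 counts against 55 and 7, wild type first. In CPM it had 1.89 and 2.91 against 2.19 and 0.515. Mutant-labelled replicate 1 lay between the wild-type libraries and replicate 2 well below them, so the groups overlapped. The log2 fold change was −0.73 (SE 0.58, 95% interval −2.07 to 0.61, edgeR FDR 0.448). The value rested on mutant-labelled replicate 2, the shallowest library: it was −0.14 without that library and −2.21 without mutant-labelled replicate 1, and it passed in neither fit (edgeR FDR 0.947 and 0.125). It was −0.38 with library totals, −0.39 without wild type replicate 2 and −0.98 without wild type replicate 1.

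The other R-spondins were rare. Rspo3 (ENSMUSG00000019880, chromosome 10, 29452416 to 29535867, minus strand), which is needed for vessel formation in the embryo, had 5 and 9 counts against 13 and 5, wild type first. The ratio of mutant-labelled to wild type per effective library was 1.23 (exact 95% counting interval 0.579 to 2.68). Rspo2 (ENSMUSG00000051920, chromosome 15, 43020794 to 43170826, minus strand), which acts in limb and lung formation, had 2 and 2 counts against 4 and 1, a ratio of 1.20 (0.258 to 6.04). Rspo4 (ENSMUSG00000032852, chromosome 2, 151842927 to 151874668, plus strand), the R-spondin of nail formation, had 0 counts in all 4 libraries. A count of 0 allows up to 3 counts, or 0.120 to 0.221 CPM depending on the library. The intervals exclude neither a sizeable rise nor a sizeable fall of Rspo2 or Rspo3.

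The ligase genes showed no difference that passed the test. Znrf3 (ENSMUSG00000041961, chromosome 11, 5276324 to 5444847, minus strand) had 97 and 161 counts against 146 and 69, wild type first. In CPM it had 5.55 and 8.22 against 5.82 and 5.08, so that mutant-labelled replicate 1 lay inside the wild-type range. The log2 fold change was −0.33 (SE 0.27, 95% interval −0.97 to 0.30, edgeR FDR 0.468). It was 0.037 with library totals alone, which is −0.37 relative to the median of all genes there, −0.60 without wild type replicate 1 and −0.053 without wild type replicate 2. Rnf43 (ENSMUSG00000034177, chromosome 11, 87662722 to 87735539, plus strand) had 4 and 2 counts against 4 and 1 and was left out by the filter. Its ratio was 0.799 (exact 95% counting interval 0.193 to 3.14).

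In all, 4 of the 9 members passed the filter on low counts, and 5 did not (Lgr5, Rspo2, Rspo3, Rspo4 and Rnf43). Of the 3 tested members other than Lgr6, edgeR called 0, with 1, Lgr4, at an unadjusted p under 0.05. DESeq2 called 1 of them and limma-voom 0. Of all genes tested 7.37% were called, 2.79% as higher and 4.58% as lower in the mutant-labelled group. Lgr6 itself stood among the called genes, which is no finding, since that comparison led to its choice.

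**Figure D3:**
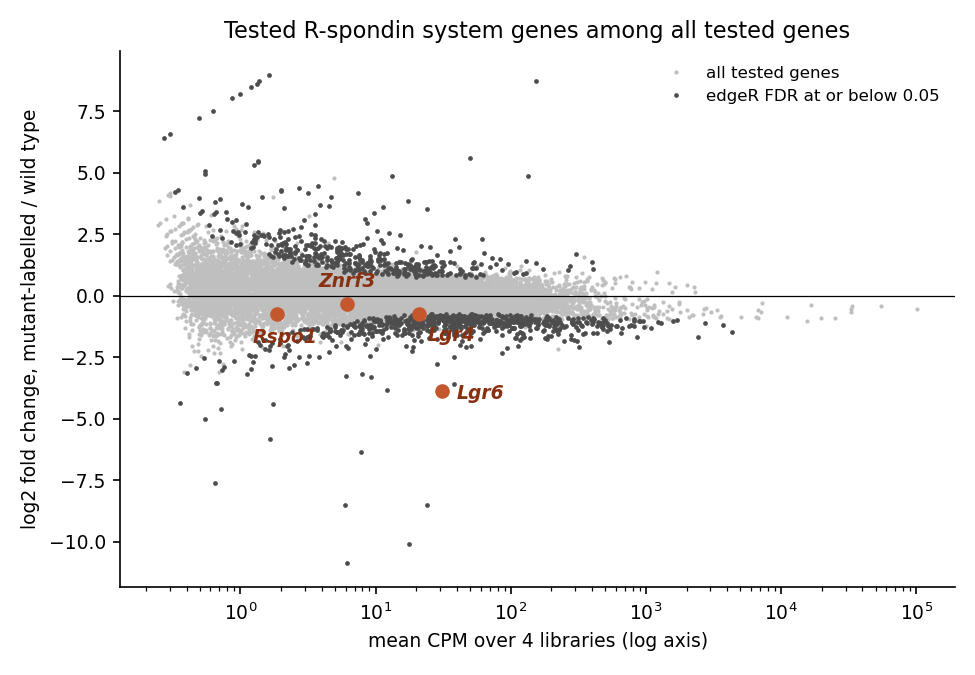
Log2 fold change of mutant-labelled over wild type against mean CPM over the 4 libraries (log axis), one point per tested gene, with genes at an edgeR FDR at or below 0.05 in dark grey and the 4 tested members in orange. Lgr6, which was chosen for its large decrease, lies at −3.86, below almost all genes of its abundance. Lgr4, Rspo1 and Znrf3 lie at −0.73, −0.73 and −0.33.

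Per kb of exon Lgr6, Lgr4, Rspo1 and Znrf3 had the highest means in both groups. In wild type the order of the means was Lgr6 (8.08 and 8.87 CPM per kb), Lgr4 (4.21 and 4.72), Rspo1 (0.974 and 1.50), Znrf3 (0.703 and 1.04), Rspo3 (0.0925 and 0.149), Rnf43 (0.0349 and 0.0156), Rspo2 (0.0224 and 0.0200), Lgr5 (0.0111 and 0) and Rspo4 (0 and 0). The ranges of Rspo1 and Znrf3 overlapped, as did those of Rnf43 and Rspo2. In the mutant-labelled libraries Lgr4 came first (2.76 and 2.60 CPM per kb). Rspo1 (1.13 and 0.266), Znrf3 (0.738 and 0.644) and Lgr6 (0.652 and 0.494) followed with ranges that overlapped one another. Rspo3 (0.168 and 0.119), Rspo2 (0.0312 and 0.0144), Rnf43 (0.0243 and 0.0112) and Lgr5 (0.0194 and 0.0143) came after them, and the last 3 of these overlapped. With the longest transcript as length, Znrf3 changed places with Rspo1 in the mutant-labelled order, as did the rare genes Lgr5, Rspo2 and Rnf43 among themselves, and the wild-type order was the same.

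Few genes downstream and upstream of the R-spondin step passed the edgeR test, and their number depended on the setting. In 9 lists of Wnt pathway genes with 133 different genes, members left out, 108 passed the filter, 2 were higher, 1 was lower and 105 did not pass the edgeR test. That is 2.78%, against 7.37% of all genes tested, and 25.0% against 27.8% had an unadjusted p under 0.05. DESeq2 called 7 and limma-voom 2. The median log2 fold change of the 108 was 0.10, against 0.02 for all genes tested. Without wild type replicates 1 and 2 and mutant-labelled replicates 1 and 2 in turn, the median log2 fold change of the tested pathway genes was −0.05, 0.30, 0.04 and 0.17. With every library kept, 12 pathway genes were higher and 0 lower with library totals alone, and 11 and 5 at an FDR of 0.10. Over all genes tested the same settings gave 1189 higher and 206 lower, and 1077 and 1411. The pathway lists gave 7 and 2 with no filter on low counts, 10 and 11 with the length trend removed and 17 and 10 with crossed replicate numbers as a block. Among all genes, 1169 were higher and 1461 lower with no filter, and the crossed block called 4176. The DESeq2 test and the removed length trend also called more of all genes than the main fit, as given in the section on processing. The number called among all genes ran between 1060 and 4176 over the alternatives that keep every library, against 1126. The pathway counts in these settings are therefore not read as a result about the pathway.

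Among Wnt ligands and their secretion genes, 11 of 21 were tested and 0 were called, with 4 at an unadjusted p under 0.05 and 0 by DESeq2 or limma-voom (median log2 fold change 0.03). Wls, which carries Wnts to the cell surface, had 58.4 and 49.7 CPM against 37.7 and 36.9 CPM (log2 fold change −0.54, SE 0.19, edgeR FDR 0.114). Wnt9a, the Wnt ligand gene with the highest mean CPM, had 7.21 and 8.27 against 5.62 and 4.71 CPM (−0.57, SE 0.24, edgeR FDR 0.168). Both groups were separate for these genes, within the 59.0% given above. Of the Frizzled and other Wnt receptor genes, 15 of 16 were tested and 1 rose. That gene was Ptk7, a pseudokinase receptor of planar cell polarity, at 9.84 and 11.2 against 17.9 and 18.9 CPM (log2 fold change 0.81, SE 0.20, edgeR FDR 0.0489). It lost its call in 6 of 17 alternatives: without mutant-labelled replicate 1 or 2 (edgeR FDR 0.305 and 0.370), with DESeq2 size factors (0.0518), limma-voom (adjusted p 0.0501), the robust fit (0.0513) and the replicate block (0.0766).

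Of the extracellular Wnt inhibitors 12 of 18 were tested, 1 fell and 11 did not pass (median 0.06). Trabd2b, a membrane protease that inactivates Wnt proteins, fell from 96.2 and 96.2 CPM to 45.8 and 48.3 CPM, a log2 fold change of −1.03 (SE 0.18, edgeR FDR 0.0222). It was not called without mutant-labelled replicate 1 or 2 (edgeR FDR 0.276 and 0.216) or with library totals (0.0750). Kremen1, a Dickkopf receptor that is also the nearest tested coding gene below Znrf3 on chromosome 11, had 104 and 107 against 64.7 and 67.4 CPM (log2 fold change −0.68, SE 0.18, edgeR FDR 0.0628).

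Inside the cell, all 20 genes of the dishevelled and destruction complex list were tested and 0 were called, with 2 at an unadjusted p under 0.05 and 0 by DESeq2 or limma-voom (median 0.02). Ctnnb1, beta-catenin itself, had 226 and 259 CPM against 237 and 236 CPM (log2 fold change −0.03, SE 0.20, edgeR FDR 0.928). Csnk1a1, the kinase that primes beta-catenin for destruction, had 178 and 173 against 144 and 138 CPM (−0.31, SE 0.19, edgeR FDR 0.325). Among TCF, LEF and nuclear cofactor genes 14 of 15 were tested and 0 were called, with 2 at an unadjusted p under 0.05, 1 by DESeq2 and 0 by limma-voom (median 0.13). Bcl9l, a coactivator of beta-catenin, had 46.2 and 86.3 against 78.3 and 49.1 CPM, with both mutant-labelled values inside the wild-type range. Tcf7l1, a TCF that mostly represses, had 29.3 and 43.4 against 49.3 and 49.6 CPM (0.44, SE 0.23, edgeR FDR 0.245).

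Of 19 common beta-catenin target genes 15 were tested, 1 rose and 14 did not pass (median 0.29). Sox9, a transcription factor of cartilage and valve precursors, rose from 2.80 and 3.12 CPM to 7.42 and 12.1 CPM, a log2 fold change of 1.70 (SE 0.31, edgeR FDR 0.0228). It lost its call without mutant-labelled replicate 2 (edgeR FDR 0.0916). Axin2, the target most often read as a sign of Wnt signalling and named here after its values were seen, had 2.17 and 2.91 against 2.95 and 1.99 CPM (−0.02, SE 0.35, edgeR FDR 0.975), with overlapping groups. Ccnd1 and Nkd2, chosen likewise after their values were seen, had log2 fold changes of 0.89 (edgeR FDR 0.0586) and 0.99 (0.0888). Of the 15 tested targets 10 had fitted values above 0 and 5 below, and the 4 at an unadjusted p under 0.05 (Sox9, Ccnd1, Nkd2 and Nkd1, the last at 0.66 with edgeR FDR 0.165) were all above 0. Those 4 of 15 are near the 27.8% of all genes tested that had an unadjusted p under 0.05. The summed level of the list was 135% of wild type, at 97.4 and 124 against 141 and 158 CPM. Much of that came from its most abundant gene, Ccnd1, at 21.0 and 29.6 against 41.3 and 52.4 CPM.

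Planar cell polarity genes, all 12 tested, gave 0 calls, with 2 at an unadjusted p under 0.05 and 0 by DESeq2 or limma-voom (median 0.34). Daam1 had 50.8 and 64.5 against 51.7 and 51.2 CPM and Prickle3 29.5 and 41.1 against 51.9 and 41.5 CPM. Heparan sulfate proteoglycans, cell surface and matrix proteins that can bind R-spondins, gave 0 calls among 11 tested of 12, with 4 at an unadjusted p under 0.05, 1 by DESeq2 and 0 by limma-voom (median 0.43). Hspg2, perlecan of basement membranes, had 665 and 1266 against 1482 and 1313 CPM, and Gpc1 240 and 211 against 150 and 144 CPM (log2 fold change −0.62, SE 0.20, edgeR FDR 0.0956). Of the other leucine-rich repeat receptors of the LGR class only Rxfp1, a relaxin receptor, passed the filter, at 0.343 and 0.664 against 0.877 and 0.663 CPM (0.62, SE 0.57, edgeR FDR 0.515). Tshr had 0 and 2 counts against 8 and 1. Both of these relatives were close to the floor.

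**Figure D4:**
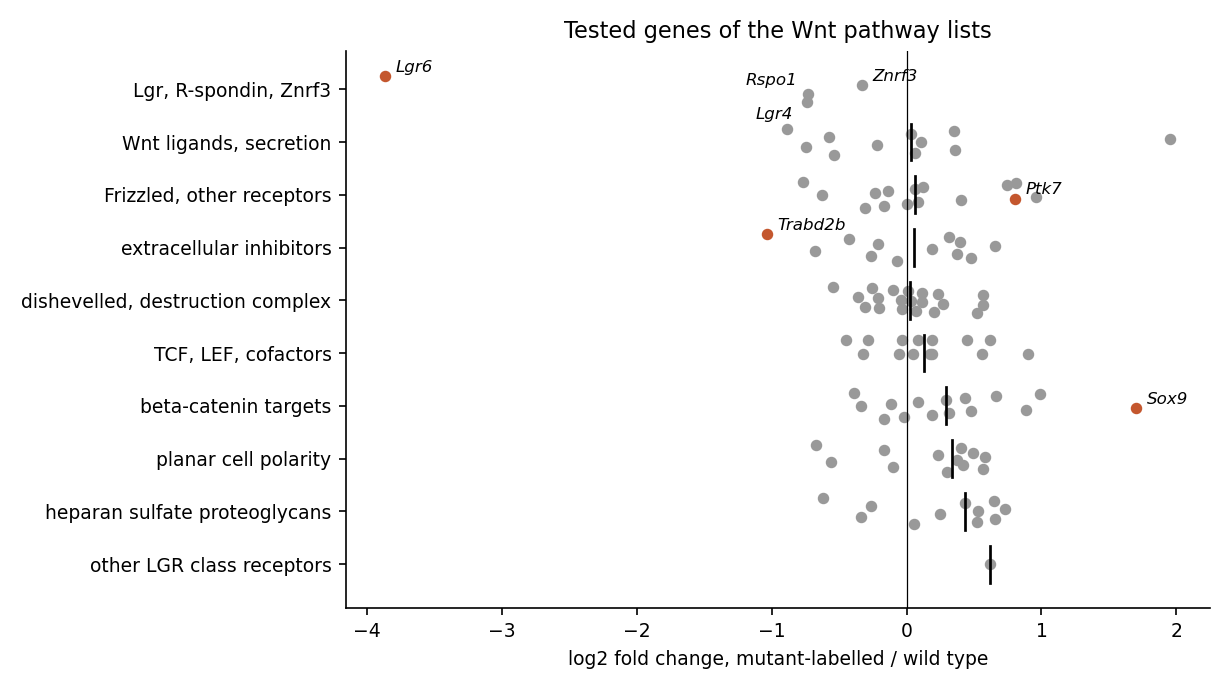
Log2 fold change of mutant-labelled over wild type for the 4 tested members (top row) and the tested genes of the 9 Wnt pathway lists, one point per gene, with called genes in orange, black bars at list medians and no bar for the members. The listed genes run from the called Trabd2b at −1.03 to Wnt6 at 1.96. Lgr6 lies below them at −3.86, but it was chosen for its large decrease, so this is no finding.

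Markers of several heart cell types moved with the groups. The 8 ventricular muscle markers summed to 84821 and 70909 CPM in wild type against 42034 and 45469 CPM, or 56.2% of the wild-type mean. Of these 8, 1 was called by edgeR, 7 had an unadjusted p under 0.05, and DESeq2 called 7 and limma-voom 1. The called gene was Pln, the regulator of the sarcoplasmic calcium pump (log2 fold change −0.90, edgeR FDR 0.0443). Its call was lost in 6 of 17 alternatives, with library totals (−0.50, edgeR FDR 0.101), upper-quartile factors (0.0572), the robust fit (0.0527), the replicate block (0.112) and without mutant-labelled replicate 1 or 2 (0.471 and 0.474).

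Among the 8 atrial markers 3 fell and 1, Nppa, rose, so their sum is also given without Nppa, a choice made after seeing the data. Together they summed to 611 and 538 CPM against 384 and 400 CPM (68.2%). Nppa, atrial natriuretic peptide, which the ventricle also makes under load, rose from 116 and 107 CPM to 183 and 283 CPM (log2 fold change 1.07, edgeR FDR 0.0447). The other 7 summed to 496 and 431 CPM against 202 and 117 CPM, which is 34.3% of wild type. Myl7 and Myl4, light chains of atrial myosin, fell by 2.04 and 1.70 on the log2 scale (edgeR FDR 0.0206 and 0.0250), Myl4 losing its call without mutant-labelled replicate 2 (0.131), and Kcnj3, a potassium channel subunit, fell by 0.83 (0.0455). The calls of Nppa and Kcnj3 lay close to the threshold of 0.05 and were not followed through the alternative settings. Bmp10, a secreted factor of the atria named with Nppa and Kcnj3 after their values were seen, had 0 and 690 counts in wild type against 2 and 2. It was left out by the filter, and its mean stood at 0.644% of wild type, lower than the 6.76% of Lgr6, through wild type replicate 2 alone. Lgr6 was high in both wild-type libraries, at 55.4 and 60.8 CPM, and so were Myl7 and Myl4. The part of atrial tissue in the difference of Lgr6 was not tested.

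Fibroblast markers stood at 142% of the wild-type sum, endothelial markers at 141%, smooth muscle markers at 110% and pericyte markers at 111%. EdgeR called 0 in each of these lists, with 6, 3, 1 and 0 at an unadjusted p under 0.05 (2, 3, 0 and 0 by DESeq2, 0 in each by limma-voom). Without wild type replicates 1 and 2 in turn the fibroblast sum was 136% and 149%, the endothelial sum 125% and 163%, the smooth muscle sum 104% and 116% and the pericyte sum 95.7% and 132%. With 1 gene left out in turn, the fibroblast sum ran from 123% (without Col1a1) to 165% (without Gsn). The endothelial sum ran from 131% (without Cdh5) to 147% (without Pecam1). Gsn had a fitted log2 fold change of −0.56, against a median of 0.63 for the fibroblast list. The pericyte sum was 96.9% of wild type without Rgs5, and the median log2 fold change of that list was −0.02. Endocardial and valve markers stood at 72.0% of wild type through 1 gene. Tmem100 of that list fell by 1.61 on the log2 scale (edgeR FDR 0.0107), the other 5 summed to 101% of wild type, and the median of the list was near 0 (−0.000069). Epicardial markers summed to 60.3 and 63.6 CPM against 56.9 and 34.5 CPM (73.7%), or 91.8% of wild type without mutant-labelled replicate 2 and 55.6% without replicate 1. Wt1, an epicardial transcription factor, rose by 0.99 (edgeR FDR 0.0345, and 0.170 and 0.187 without mutant-labelled replicates 1 and 2). It ran against the other 6 markers, which all had fitted values below 0, were not called and summed to 50.1% of wild type (median of the list −0.93). The part of these shifts in the difference of Lgr6 was not tested.

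Skin and hair follicle, where Lgr6 is best known, left little trace. The 7 markers of epidermis and hair follicle summed to 2.06 to 3.43 CPM in all 4 libraries, with Krt5 and Krt1 at 0 counts throughout and no separation of the groups, against 58.1 CPM of Lgr6 in wild type. Lung epithelium markers summed to 0.629 and 3.06 CPM against 4.11 and 3.90 CPM, wild type first, with Sftpc, Sftpa1 and Nkx2-1 at 0. Adipocyte markers summed to 1.14 and 0.255 CPM against 0.160 and 0.0736 CPM, with Retn and Lep at 0. In these lists the groups were separate, at sums of a few CPM or less. Thymus markers summed to 0.229 to 1.79 CPM with Rag2 at 0. Skeletal muscle markers summed to 7.51 to 12.6 CPM with Myh4 and Myh1 at 0. Schwann cell markers summed to 16.8 and 17.7 CPM against 23.5 and 20.2 CPM and macrophage markers to 154 and 129 CPM against 151 and 172 CPM.

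Most genes around Lgr6 on chromosome 1 did not pass the test, and its nearest neighbours had fitted values above 0. Within 500 kb of either end of Lgr6 15 coding genes were tested, with a median log2 fold change of 0.03. Of the 15, 2 fell, 0 rose and 13 did not pass, while over all genes tested 4.58% were lower and 2.79% higher. The nearest were Ube2t, 9.14 kb below Lgr6 (1.54 and 0.919 against 1.36 and 1.77 CPM, log2 fold change 0.33, edgeR FDR 0.668), and Ptpn7, 27.4 kb above it (0.40 and 0.41 against 0.678 and 0.515 CPM, 0.58, edgeR FDR 0.542). The called neighbours, named after their values were seen, were Timm17a of the mitochondrial import machinery (log2 fold change −1.22, edgeR FDR 0.0336) and Lmod1, a leiomodin (−1.17, edgeR FDR 0.0244). Both lost their call in 3 of 17 alternatives: without mutant-labelled replicate 1 (edgeR FDR 0.160 and 0.225), without mutant-labelled replicate 2 (0.148 and 0.0685) and with library totals (0.0604 and 0.0741). No annotated gene overlaps Lgr6 on either strand in GENCODE M21, so its counts are not shared with a neighbour by position.

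**Figure D5:**
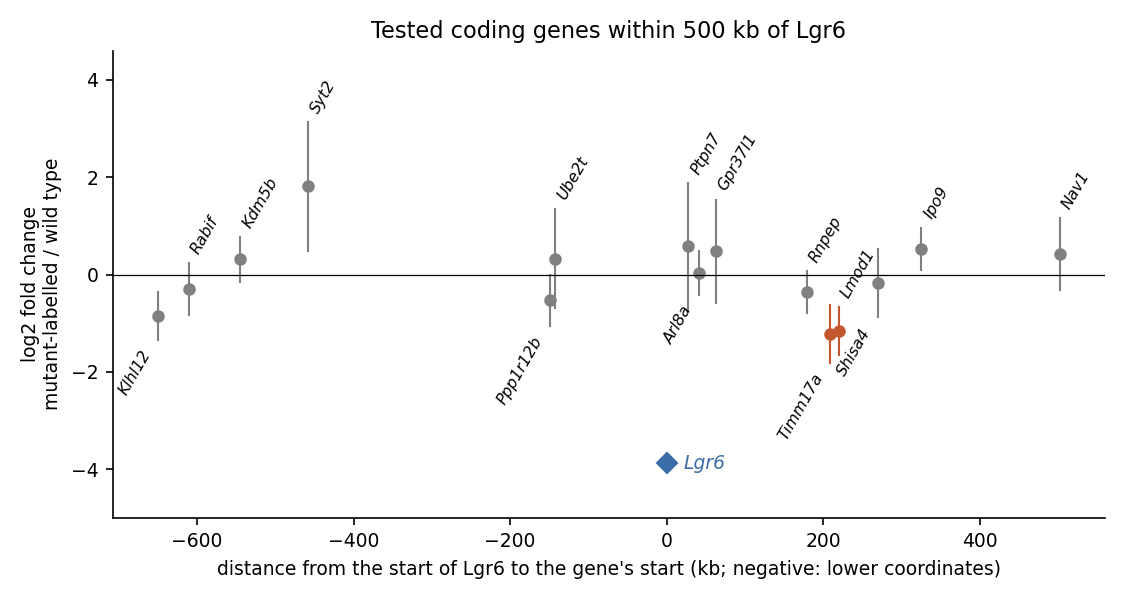
Log2 fold change of mutant-labelled over wild type, with 95% intervals, for the 15 tested coding genes within 500 kb of either end of Lgr6, against the distance between gene starts in kb; Lgr6 is the blue diamond at 0. The neighbours lie between −1.22 (Timm17a) and 1.81 (Syt2), with Timm17a and Lmod1 in orange as called genes. Lgr6 lies below all of them at −3.86, but it was chosen for its large decrease, so this is no finding.

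The genes most like Lgr6 in their levels over the 4 libraries were sought by the distance between centred log2 CPM profiles, which describes these libraries only. The 5 nearest were Nxpe4 (distance 0.63), Akr1e1 (0.65), Pdzd3 (0.67), Rab6b (0.86) and Smco1 (0.90). Nxpe4 had 14.6 and 19.4 against 1.95 and 1.40 CPM. Akr1e1, an aldo-keto reductase, had 28.7 and 16.9 against 1.75 and 1.40 CPM, Rab6b, a GTPase of vesicle traffic, 11.1 and 17.6 against 1.71 and 1.40 CPM, and Smco1 13.3 and 8.58 against 1.20 and 1.03 CPM. Pdzd3 had 28 and 23 counts against 2 and 0. In each of these genes mutant-labelled replicate 2 was the lowest library, as it was for Lgr6, and they were chosen by this likeness, so no test is given.

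For Lgr4, the most abundant member besides Lgr6, the nearest profiles were those of Sc5d, an enzyme of cholesterol synthesis (distance 0.018), Strn3, a striatin (0.022), Bag3, a co-chaperone of muscle (0.027), Slitrk4 (0.032) and Palld, an actin-binding protein (0.042). Their fitted log2 fold changes ran from −0.77 to −0.73. Strn3 was the 1 called gene among them (edgeR FDR 0.0491), and its call was lost in 6 of 17 alternatives: without mutant-labelled replicate 1 or 2 (0.395 and 0.448), with library totals (0.254), upper-quartile factors (0.0601), the robust fit (0.0508) and the replicate block (0.101).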

How the data were processed

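BGI made the libraries, per the labels. FastQC and HISAT2 with the mm10 build were used, per the submitters' processing notes; versions, the counting program, its annotation and strand setting: not given in the sources used here. Each value is an unnormalized read count, whole as the authors deposited it. GENCODE M21 named 54723 of the 54752 identifiers; it is built on the same assembly and also gave coordinates (counted from 1) and lengths (union of exons).

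Genes were kept with filterByExpr at its defaults (15283 left). The quasi-likelihood test of edgeR 4.0.16, run in R 4.3.3 on TMM-scaled libraries, had genotype as the only term, 2 residual degrees of freedom and Benjamini-Hochberg adjustment (FDR, threshold 0.05). The test shares information on spread across genes, so its p-values and intervals rest on more than these 2 degrees of freedom. The standard error is the size of the log2 fold change divided by the square root of F; intervals are at 95%. CPM uses TMM-scaled totals of the tested genes. DESeq2 1.42.0 and limma 3.58.1 (voom) were alternatives. The steps were tested on simulated data. Floors are 3 counts per library, and counting intervals are exact; reads carry no molecular identifiers, so both cover counting error only.

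The members, 9 pathway lists, 17 marker lists and the rule for named genes were chosen with earlier results of these data known. The rule names the 9 members, from each pathway list up to 4 called genes (failing any, the 2 of highest mean CPM), from each marker list up to 2, the 5 profiles nearest to Lgr6 and to Lgr4, and the nearest tested coding genes. Same-numbered libraries did not deviate together (Pearson's r −0.25 across genes).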

Additional observations from a re-analysis of the deposited data

How the results depend on the processing

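The log2 fold change of Lgr6 kept its sign and lay between −4.02 and −3.48 over the 13 alternatives that keep all libraries, and between −4.10 and −3.71 without a library. The number of genes called was 1126 and changed to 2488 at an FDR of 0.10, 2630 with no filter on low counts and 1705 with the DESeq2 Wald test; with alternatives chosen after seeing the data it was 2937 with the length trend removed and 4176 with crossed replicate numbers as a block. Without a library it ran from 377 to 5679, where the lone sample left in a group takes its spread from the other group. With library totals alone it was 1189 higher and 206 lower, and with upper-quartile factors 506 and 554, against 426 higher and 700 lower. Of the members other than Lgr6, 0 were called, and 1, Lgr4, in each of those 5 settings; without a library the number ran from 0 to 1. The replicate block gave 580 higher and 642 lower, in all 1222 genes and 0 members; the labels give the groups the same replicate numbers but no shared litter or batch. Signs turned with library totals for Znrf3 (0.037), Ctnnb1 (0.35), Csnk1a1 (0.081), Bcl9l (0.30) and Daam1 (0.21), and with upper-quartile factors for Ctnnb1 (0.025) and Bcl9l (0.0059). Without a library, Ctnnb1 ran from −0.14 to 0.029, Bcl9l from −0.44 to 0.44 and Ube2t from −0.047 to 0.72; the cause was not tested. Depth limits Lgr5, Rspo2, Rspo3, Rspo4 and Rnf43, which had at most 13 counts in any library.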

Other observations

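Within 500 kb of Rspo2 3 coding genes were tested, and Angpt1, which encodes angiopoietin 1 and lies 344 kb below it, was lower in the mutant-labelled libraries (11.7 and 10.4 CPM in wild type, 3.91 and 3.53 CPM in the other group, log2 fold change −1.56, SE 0.23, edgeR FDR 0.0141). Eif3e on the other side had a log2 fold change of −0.13 (edgeR FDR 0.751). The genes beside Lgr4 stood above 0, Ccdc34 at 0.82 (edgeR FDR 0.0832) and Lin7c at 0.23 (0.474), while Lgr4 stood at −0.73. Beside Rnf43, Supt4a had −0.24 and Mtmr4 0.12, and beside Rspo1, Gnl2 had −0.19, with edgeR FDR of 0.597, 0.737 and 0.544. The antisense gene Rspo4os had 1 count in each of 2 libraries, wild type replicate 2 and mutant-labelled replicate 1, where Rspo4 had 0.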
